A study of Homo sapiens with 27 samples.

Results

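Levels of 10 Notch pathway genes were compared across lobular breast cancer cells deprived of estrogen: the receptors NOTCH1, NOTCH2 and NOTCH3, the ligands JAG1, JAG2 and DLL1, and the target genes HES1, HES4, HEY1 and HEY2. They were chosen by name from the deposited table of estimated counts, by matching its Ensembl identifiers to GENCODE symbols, and make up 10 of its 60619 genes. All 10 passed the filter on low counts in every comparison.

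Notch receptors sit in the cell membrane and are activated by Jagged or Delta-like ligands on a neighbouring cell. Ligand binding exposes the receptor to cleavage by ADAM metalloproteases and then by gamma-secretase, and the freed intracellular domain enters the nucleus, where it joins the DNA-binding protein RBPJ and a Mastermind-like coactivator. HES and HEY genes, which encode basic helix-loop-helix repressors, are the classical targets of this complex, and in the mammary gland the pathway is known for its part in luminal cell fate.

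The RNA-Seq libraries came from the estrogen receptor-positive human invasive lobular carcinoma lines MDA-MB-134-VI (MM134) and SUM44PE (SUM44) and from long-term estrogen-deprived (LTED) variants, which had been grown for months in IMEM with charcoal-stripped serum until estrogen-independent cells emerged. There were 9 groups with 3 wells each: the MM134 parental line with its 4 variants (LTED-A, B, D and E), SUM44PE parental cells, SUM44F parental cells (SUM44PE adapted over months to medium with fetal bovine serum), and the 2 variants of SUM44F (SUM44 LTED-A and B). Parental wells went without hormone for 3 days before they were collected, so short deprivation is compared with long deprivation, and each LTED variant is a separately derived culture whose wells do not replicate the derivation. The 4 MM134 comparisons share the MM134 parental libraries and the 2 SUM44 comparisons share the SUM44F libraries.

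The 27 libraries held 28583554 to 134882175 estimated counts. SUM44 LTED-A replicates 2 and 3 differed by less than the sampling noise and were counted as 1 sample, which left n = 2 in that group. The 7 luminal epithelial markers examined, among them GATA3, KRT8 and EPCAM, reached at least 1 CPM (counts per 1e+06 counts of the library, after normalisation) in every group. They summed to 4378 to 4401 CPM in MM134 parental wells and to 6111 to 7095 CPM in the MM134 variants. In SUM44 the sums were 6306 to 7321 CPM in SUM44F, 7180 to 7701 CPM in SUM44PE, 7690 to 8458 CPM in LTED-A and 6001 to 6327 CPM in LTED-B. The 6 fibroblast markers summed to 5.03 to 23.6 CPM in 23 samples, with LUM at no more than 0.0301 CPM, but 3 libraries stood apart: their sums were 361 CPM in SUM44F parental replicate 1, 36.0 CPM in MM134 parental replicate 3 and 27.7 CPM in MM134 LTED-D replicate 2, with LUM at 57.2, 2.79 and 2.27 CPM. Markers of other cell types also moved with the groups. The 5 endothelial markers summed to 25.95 to 45.5 CPM in SUM44F, with PECAM1 highest, to 10.9 to 11.2 CPM in SUM44PE, and to 2.82 to 3.36 CPM in SUM44 LTED-A and 3.73 to 4.58 CPM in SUM44 LTED-B. The 5 immune markers summed to 0.429 to 1.04 CPM in MM134 parental wells and were higher in all 4 variants, from 4.39 CPM in LTED-E to 24.5 CPM in LTED-A. Of these 5, 0 reached a group mean of 1 CPM in MM134 parental wells, 2 in LTED-A, LTED-B and LTED-E, and 1 in LTED-D. CD3E was at 0 in the MM134 parental wells, LTED-A, LTED-B and LTED-E. In SUM44 the immune sums were 2.19 to 7.36 CPM in SUM44F and 1.29 to 3.88 CPM in the variants. Their part in the results was not tested. Without the 3 libraries, the log2 fold changes of called members moved by at most 0.13, and the calls that changed are named beside their genes below.

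Levels are given as CPM normalised over all 9 groups (mean ± SD over wells), and differences as log2 fold changes with their standard error (SE) and the adjusted p of edgeR's quasi-likelihood test. A gene was called when it changed by more than 1.5-fold at an adjusted p below 0.001 over all genes tested. In these bulk libraries, fewer cells that express a gene and less RNA per cell cannot be told apart.

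Between 5 and 7 of the 10 genes were called in each MM134 variant. In LTED-A 7 were called, 3 higher and 4 lower, where 20.3% of all genes tested were called, 10.5% higher and 9.82% lower. In LTED-B 5 were called, 1 higher and 4 lower, beside 15.9% of all genes (8.11% higher, 7.75% lower). In LTED-D 6 were called, 2 higher and 4 lower, beside 17.6% (9.63% higher, 7.95% lower). In LTED-E 7 were called, 3 higher and 4 lower, beside 19% (8.71% higher, 10.3% lower). In SUM44 LTED-A 5 were called, 3 higher and 2 lower, beside 13.7% of all genes (6.39% higher, 7.28% lower), and in SUM44 LTED-B 4 were called, 3 higher and 1 lower, beside 17.3% (8.69% higher, 8.57% lower). The members were thus called more often than all genes in each variant, which is a description of 10 chosen genes and not a test. The median log2 fold change of the 10 genes lay between -0.38 and 0.38 in the 6 comparisons and that of all genes between -0.09 and 0.02.

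**Figure D1:**
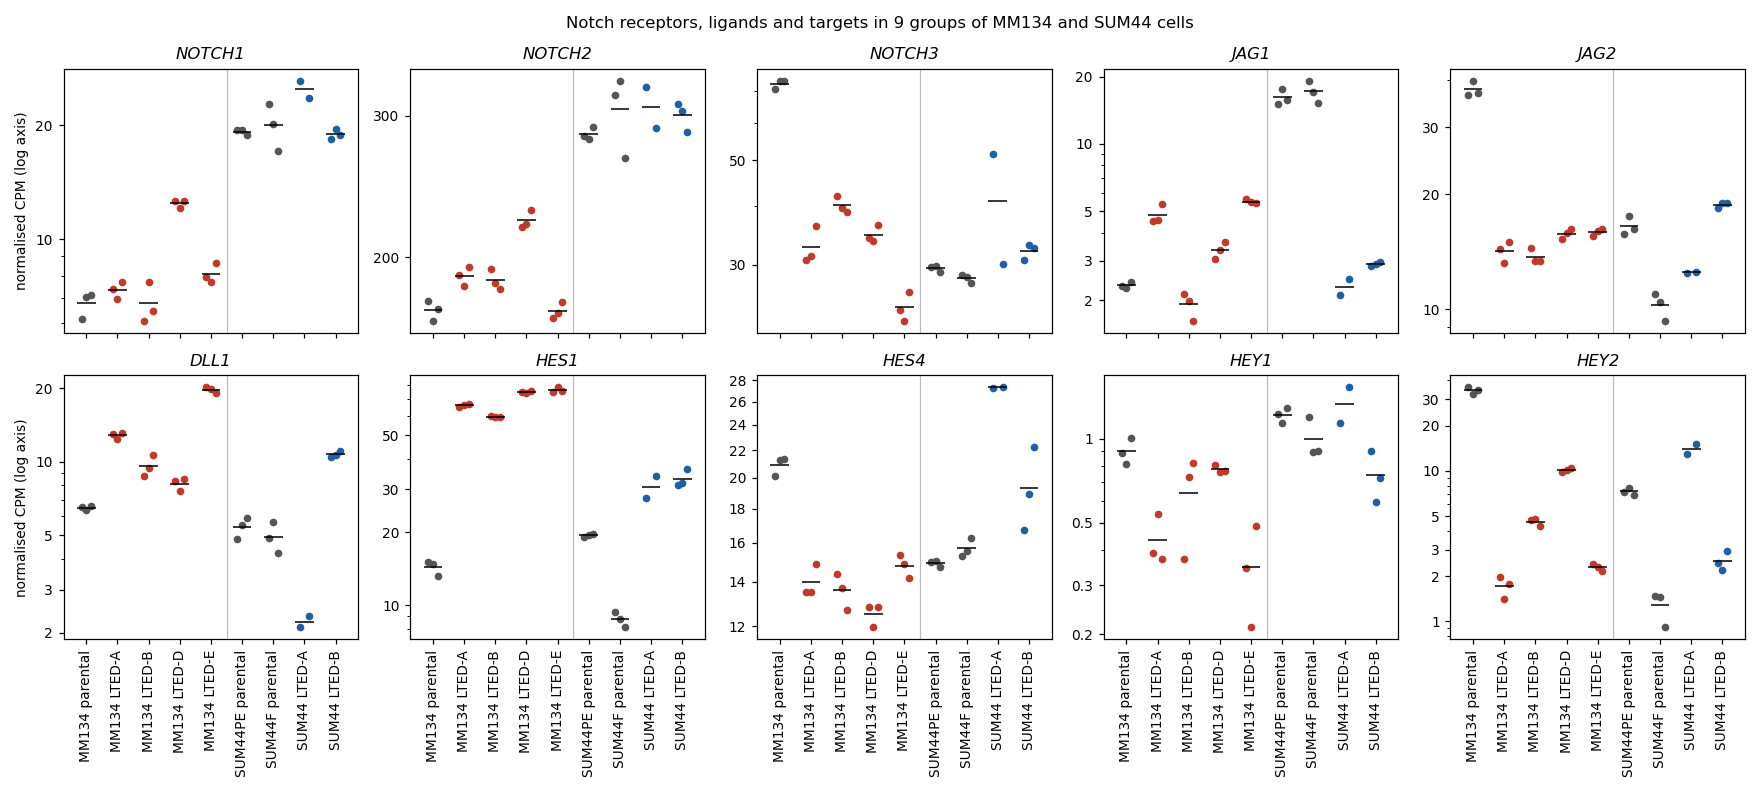
Each panel plots 1 gene, with normalised CPM on a log axis for every sample of the 9 groups (grey, parental; red, MM134 LTED; blue, SUM44 LTED; horizontal line, group mean). HES1 is higher in all LTED samples than in the parental samples, whereas HEY2 and JAG2 are highest in MM134 parental cells and JAG1 is highest in the SUM44PE and SUM44F parental cells.

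HES1, a repressor that also acts on its own promoter, was the only one of the 10 genes called in the same direction in all 6 LTED variants, and HEY2, which encodes a related repressor, fell in the 4 MM134 variants and rose in SUM44 LTED-A. Both genes, and HES4, hold the letters TGGGAA, the core of the site bound by RBPJ, within 250 bases before to 50 bases after their RefSeq start sites. These 3 of 8 promoters are shown because they are the ones among the members in the table with this core, and because their genes changed in different directions. The sequences are from RefSeq (GRCh38.p14), 5′ to 3′ on the strand of the gene, with the core in capitals on either strand (TTCCCA is TGGGAA read from the opposite strand). HES1 lies at chr3:194135898-194136197 (plus strand), HES4 at chr1:1000048-1000347 (minus strand) and HEY2 at chr6:125749382-125749681 (plus strand), where the RefSeq start lies inside the GENCODE gene.
HES1: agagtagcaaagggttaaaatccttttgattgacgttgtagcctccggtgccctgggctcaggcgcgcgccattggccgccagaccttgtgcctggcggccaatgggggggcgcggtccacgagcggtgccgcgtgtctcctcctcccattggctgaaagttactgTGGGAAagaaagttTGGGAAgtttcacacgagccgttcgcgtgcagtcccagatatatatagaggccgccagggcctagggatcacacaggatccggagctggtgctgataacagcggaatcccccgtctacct
HES4: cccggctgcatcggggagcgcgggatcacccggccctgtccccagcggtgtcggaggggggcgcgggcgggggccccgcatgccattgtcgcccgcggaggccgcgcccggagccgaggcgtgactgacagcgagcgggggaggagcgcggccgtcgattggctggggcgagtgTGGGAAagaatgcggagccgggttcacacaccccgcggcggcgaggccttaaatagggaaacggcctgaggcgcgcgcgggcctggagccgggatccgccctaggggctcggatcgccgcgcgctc
HEY2: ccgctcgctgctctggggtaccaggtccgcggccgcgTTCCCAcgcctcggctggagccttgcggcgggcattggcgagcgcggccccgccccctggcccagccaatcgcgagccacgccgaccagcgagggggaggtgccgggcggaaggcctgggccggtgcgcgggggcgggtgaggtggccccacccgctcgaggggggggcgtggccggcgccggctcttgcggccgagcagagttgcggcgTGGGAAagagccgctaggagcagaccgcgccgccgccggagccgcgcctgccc

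In the HES1 promoter the core occurred at positions -84 to -79 and -70 to -65 from the start site, 14 bases apart on the same strand. HES4 held it once, at -76 to -71. HEY2 held it on the opposite strand at -213 to -208 and again across the start site, at -3 to 3. Of all 35116 promoters of this length in the table, 24% held TGGGAA on either strand and 1.21% held it at least 2 times on the strand of the gene, as HES1 did. HES1 also held CACGAG, an N box of the kind HES proteins bind, at -132 to -127 and -58 to -53, and CACGCG on the opposite strand at -120 to -115 and -47 to -42. These letters occurred on either strand in 6.78% and 11.4% of all promoters, and 0.316% held CACGAG at least 2 times on either strand. CACGTG, which reads the same on both strands and was in 7.26% of all promoters, was in none of the 8 member promoters in the table. TGGGAA was not in those of NOTCH1, NOTCH2, NOTCH3, JAG1 and JAG2, which says only that these letters are not in these windows. None of the motifs overlapped each other in the 3 promoters printed, and a match is not evidence of binding. DLL1 and HEY1 were not matched to this table.

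Among the receptors, NOTCH2 was the most abundant in every group and was not called in any LTED variant, whereas NOTCH3 fell in all 4 MM134 variants. NOTCH1 rose only in MM134 LTED-D of the 6 variants by this test. Per kilobase of exons, the level of NOTCH2 was 10.3 CPM in the MM134 parental line and 18.2 CPM in SUM44F cells, that of NOTCH3 7.72 and 2.98 CPM, and that of NOTCH1 0.540 and 1.60 CPM.

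NOTCH3 (ENSG00000074181, chr19:15159038-15200995 on hg38, minus strand) encodes a receptor best known from vascular smooth muscle and also expressed in luminal breast cells. Its levels in the MM134 parental wells were 70.6, 73.4 and 73.7 CPM. The LTED-A wells held 30.7, 31.4 and 36.3 CPM, the LTED-B wells 42.0, 39.5 and 38.8 CPM, the LTED-D wells 34.2, 33.8 and 36.4 CPM, and the LTED-E wells 24.1, 22.9 and 26.3 CPM. No LTED well overlapped the parental wells. Against parental cells NOTCH3 changed by -1.15 (SE 0.06, adjusted p = 2.72e-12), -0.85 (SE 0.06, adjusted p = 3.75e-10), -1.05 (SE 0.06, adjusted p = 2.20e-11) and -1.56 (SE 0.06, adjusted p = 6.00e-14) on the log2 scale in LTED-A, B, D and E. LTED-E was also lower than LTED-B, with a log2 fold change of LTED-B against LTED-E of 0.71 (SE 0.06, adjusted p = 1.59e-08). In SUM44 the SUM44F wells held 28.6, 28.3 and 27.4 CPM, the LTED-A samples 51.6 and 30.2 CPM, and the LTED-B wells 30.7, 33.0 and 32.7 CPM. The LTED-A samples lay far apart, and the difference from SUM44F was 0.54 (SE 0.17, adjusted p = 0.0304), not called. With LTED-A replicate 1 as the only sample of that group, which is then assumed to vary like the other groups, it was 0.87 and called (adjusted p = 3.76e-05). For the 40 tested genes nearest to NOTCH3 the median change was 0.40 on the log2 scale in SUM44 LTED-A, and between -0.02 and 0.05 in the 4 MM134 variants.

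NOTCH2 (ENSG00000134250, chr1:119911553-120100779, minus strand) spanned 1.80-fold between its highest and lowest group. It ranged from 167 to 229 CPM over all MM134 wells and from 266 to 332 CPM over all SUM44 wells, so the 2 lines did not overlap. MM134 LTED-D was the highest MM134 group at 222 ± 5.87 CPM, with a log2 fold change of 0.38 (SE 0.03, adjusted p = 5.78e-09), which is under the 1.5-fold minimum. In the SUM44 variants NOTCH2 was 0.01 from SUM44F on the log2 scale for LTED-A (SE 0.11, adjusted p = 0.946), while LTED-B differed by -0.03 (SE 0.10, adjusted p = 0.852). NOTCH2 shares near-identical sequence with the NOTCH2NL genes. Of these, NOTCH2NLA had values under its identifier, and NOTCH2NLB, NOTCH2NLC and NOTCH2NLR had none. The software could have divided reads between NOTCH2 and NOTCH2NLA. NOTCH2NLA differed by 0.14 to 0.35 on the log2 scale in the MM134 variants and by -0.36 and -0.51 in SUM44 LTED-A and LTED-B, with no call.

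NOTCH1 (ENSG00000148400, chr9:136494433-136546048, minus strand) was at 6.15, 7.04 and 7.10 CPM in MM134 parental wells and at 12.6, 12.1 and 12.6 CPM in LTED-D. LTED-D stood above all other MM134 wells, with a log2 fold change of 0.89 (SE 0.08, adjusted p = 4.23e-08). It was also called higher in LTED-D than in LTED-A, LTED-B and LTED-E. All SUM44 groups were above all MM134 groups, from 17.1 to 26.3 CPM, and neither SUM44 variant was called against SUM44F.

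**Figure D2:**
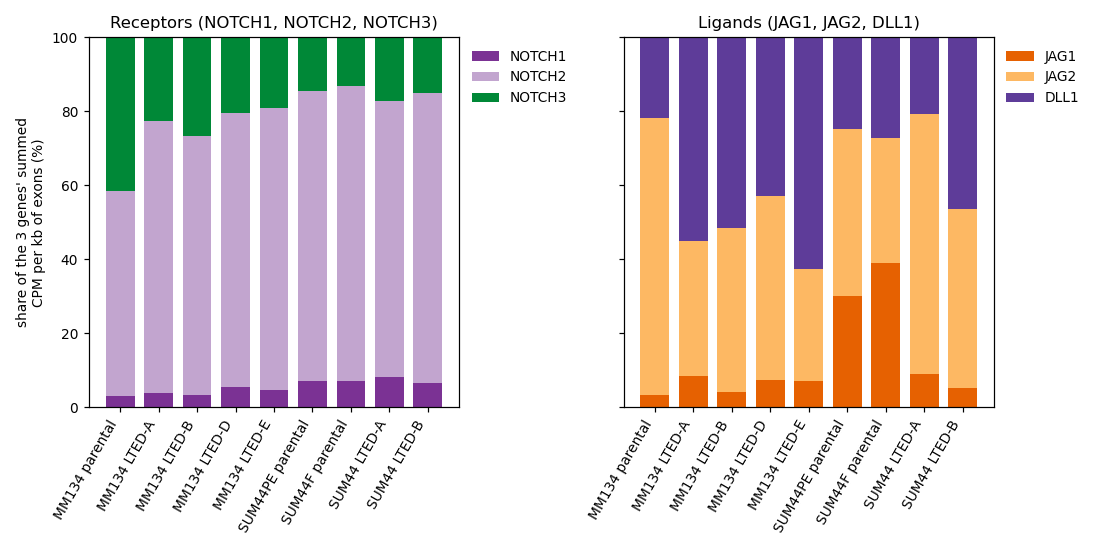
Stacked bars show what share of the summed CPM per kilobase of exons each of the 3 receptors (left) and each of the 3 ligands (right) made up in every group, as means over samples. NOTCH3 falls from 41.7% of the 3 receptors in MM134 parental cells to 19.2% in LTED-E, and the bar of JAG1 shrinks from 39.0% of the 3 ligands in SUM44F to 5.14% in SUM44 LTED-B.

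The mean LTED change of each of the 3 ligand genes differed between the 2 cell lines, by the interaction test given below. Its p-values measure the spread between wells. For DLL1, the value of SUM44 LTED-B, 1.13, lay within the MM134 range of 0.34 to 1.61. JAG2 fell in all 4 MM134 variants and rose in SUM44 LTED-B, JAG1 fell in both SUM44 variants and rose in MM134 LTED-A and LTED-E, and DLL1 rose in MM134 LTED-A, LTED-E and SUM44 LTED-B but fell in SUM44 LTED-A. JAG1 and JAG2 encode Jagged ligands, and DLL1 encodes a Delta-like ligand.

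JAG2 (ENSG00000184916, chr14:105140982-105168824, minus strand) was at 36.5, 39.8 and 36.8 CPM in MM134 parental wells, and lay between 13.3 and 16.2 CPM in the 12 wells of the MM134 variants. The parental wells did not overlap those of any variant. JAG2 changed on the log2 scale by -1.41 (LTED-A, SE 0.05, adjusted p = 1.43e-14), -1.45 (LTED-B, SE 0.05, adjusted p = 2.54e-14), -1.24 (LTED-D, SE 0.05, adjusted p = 2.28e-13) and -1.23 (LTED-E, SE 0.05, adjusted p = 1.46e-13), and none of the 6 pairs of variants was called. Levels in SUM44F were 10.9, 10.4 and 9.33 CPM. They were 12.5 and 12.5 CPM in LTED-A, 0.29 higher on the log2 scale (SE 0.10, adjusted p = 0.0383, not called), and 18.4, 19.0 and 19.0 CPM in LTED-B, 0.88 higher (SE 0.09, adjusted p = 1.72e-05). SUM44PE parental wells, at 15.8, 17.6 and 16.3 CPM, were also called higher than SUM44F, by 0.69 (SE 0.08, adjusted p = 5.50e-05), where the 31 nearest tested genes had a median of 0.49. A long non-coding gene on the same strand, ENSG00000257622, shares 7.33% of the exonic bases of JAG2 and was at no more than 0.171 CPM in any group.

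JAG1 (ENSG00000101384, chr20:10637684-10673999, minus strand) was at 19.2, 17.1 and 15.2 CPM in SUM44F and at 15.1, 17.5 and 15.7 CPM in SUM44PE. The LTED-A samples held 2.10 and 2.49 CPM, the LTED-B wells 2.83, 2.89 and 2.96 CPM. Every LTED sample was below every parental well, a log2 fold change of -2.89 for LTED-A (SE 0.15, adjusted p = 1.79e-07) and of -2.56 for LTED-B (SE 0.12, adjusted p = 8.16e-08). The summed endothelial markers were lower in the same samples, with 25.95 to 45.5 CPM in SUM44F and 2.82 to 4.58 CPM in the variants. SUM44PE had 10.9 to 11.2 CPM of them and a JAG1 level that overlapped SUM44F. The part of these markers in the JAG1 differences was not tested. The 40 tested genes nearest to JAG1 had medians of 0.09 and 0.14. MM134 cells had low levels throughout, with 2.32, 2.27 and 2.40 CPM in parental wells. The LTED-A wells held 4.49, 4.55 and 5.39 CPM, the LTED-E wells 5.66, 5.47 and 5.42 CPM, the LTED-D wells 3.07, 3.34 and 3.62 CPM, and the LTED-B wells 2.14, 1.98 and 1.62 CPM. LTED-B alone lay below the parental wells. The rises in LTED-A, 1.04 (SE 0.11, adjusted p = 1.42e-07), and LTED-E, 1.26 (SE 0.11, adjusted p = 1.30e-08), were called, and left JAG1 below its level in the SUM44 parental cells. LTED-D differed by 0.54 (SE 0.12, adjusted p = 0.000631), under the fold minimum (0.60 and called without LTED-D replicate 1), and LTED-B by -0.27 (SE 0.12, adjusted p = 0.0769). LTED-B was called lower than LTED-A, LTED-D and LTED-E.

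DLL1 (ENSG00000198719, chr6:170282206-170306565, minus strand) was at 6.55, 6.34 and 6.61 CPM in MM134 parental wells and was highest in LTED-E, at 20.2, 19.8 and 19.2 CPM. LTED-A followed with 13.0, 12.4 and 13.1 CPM. LTED-B held 8.77, 9.45 and 10.7 CPM and LTED-D 8.33, 7.58 and 8.52 CPM. No LTED well was as low as a parental well, and the 4 variants did not overlap each other. LTED-E rose by 1.61 (SE 0.07, adjusted p = 1.96e-13) and LTED-A by 0.98 (SE 0.07, adjusted p = 2.95e-10) on the log2 scale. The differences were 0.57 for LTED-B (SE 0.07, adjusted p = 1.28e-06) and 0.34 for LTED-D (SE 0.07, adjusted p = 0.000521), both under the fold minimum. Without the 3 libraries with fibroblast markers the LTED-B value was 0.59 and passed it, as it did without MM134 parental replicate 3 alone (0.59) or LTED-B replicate 1 (0.63). In SUM44 the 2 variants moved apart. SUM44F wells held 4.86, 5.66 and 4.24 CPM, LTED-A samples 2.10 and 2.33 CPM, and LTED-B wells 10.4, 10.7 and 11.0 CPM, with no overlap among the 3 groups. LTED-A fell, with a log2 fold change of -1.14 (SE 0.15, adjusted p = 0.000152), LTED-B rose by 1.13 (SE 0.13, adjusted p = 3.81e-05), and LTED-A was lower than LTED-B by a log2 fold change of -2.26 (SE 0.15, adjusted p = 2.87e-06). Without LTED-A replicate 1, the change in LTED-A was -1.03 and not called (adjusted p = 0.00282). FAM120B, on the opposite strand, shares 370 exonic bases with DLL1, or 9.69% of its exons, and differed by -0.25 to 0.17 in the 6 comparisons. FAM120B reached 58.1 CPM in its highest group, and its part in the DLL1 levels was not tested.

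As shares of the 3 ligands per kilobase, JAG2 made up 75.1 ± 1.27% in MM134 parental cells, and DLL1 21.7 ± 1.10%. In MM134 LTED-E these shares were 30.2 ± 0.940% and 62.6 ± 0.868% (n = 3 each). JAG1 was 39.0 ± 1.91% of the 3 in SUM44F, and 8.87 ± 0.808% (n = 2) in SUM44 LTED-A, where JAG2 made up 70.3 ± 1.74%. SUM44 LTED-B had near-equal levels of JAG2 and DLL1 per kilobase, 2.94 and 2.81 CPM. DLL4, given below, is not in these shares. The sum of the 3 ligands per kilobase went from 4.74 ± 0.460 CPM in SUM44F to 2.78 ± 0.0808 CPM (LTED-A) and 6.06 ± 0.133 CPM (LTED-B).

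Of the target genes, HES1 rose in every LTED variant. HES1 (ENSG00000114315, chr3:194136148-194138732, plus strand) was at 15.04, 14.8 and 13.2 CPM in MM134 parental wells. The LTED-A wells held 65.2, 66.5 and 66.9 CPM, the LTED-B wells 59.7, 59.2 and 59.1 CPM, the LTED-D wells 75.1, 74.1 and 75.7 CPM, and the LTED-E wells 75.1, 78.5 and 75.6 CPM. The lowest LTED well was far above the highest parental well. In LTED-A, B, D and E the increases were 4.59-fold (log2 fold change 2.20, SE 0.04, adjusted p = 1.01e-18), 4.14-fold (2.05, SE 0.04, adjusted p = 6.20e-18), 5.27-fold (2.40, SE 0.04, adjusted p = 6.00e-19) and 5.36-fold (2.42, SE 0.04, adjusted p = 3.13e-19). No pair of MM134 variants passed the fold minimum for HES1.

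In SUM44F the HES1 level was 9.42, 8.81 and 8.12 CPM. The LTED-A samples held 27.5 and 34.0 CPM and the LTED-B wells 31.3, 31.9 and 36.2 CPM, with both variants above all parental wells and overlapping each other. In LTED-A and B the increases were 3.52-fold (log2 fold change 1.81, SE 0.11, adjusted p = 7.49e-07) and 3.78-fold (1.92, SE 0.11, adjusted p = 2.15e-07). SUM44PE parental wells, at 19.0, 19.4 and 19.7 CPM, lay between SUM44F and the variants, 2.20-fold above SUM44F (log2 fold change 1.14, SE 0.10, adjusted p = 3.09e-06), so the rise is smaller when read against the original culture. With SUM44F as the SUM44 reference, the mean rise over the 4 MM134 variants exceeded that over the 2 SUM44 variants by 0.38 (SE 0.09, adjusted p = 0.00105), which missed the threshold. It passed without SUM44F replicate 3 (0.45, adjusted p = 0.000366). Without the averaged SUM44 LTED-A sample, which left 1 sample in that group, the difference was 0.47. Without the 3 libraries with fibroblast markers it was smaller, at 0.29 (SE 0.10, adjusted p = 0.0246). The genes nearest to HES1 had medians from -0.19 to 0.11 in the 6 comparisons.

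HEY2 (ENSG00000135547, chr6:125747664-125761269, plus strand) had the widest span of the 10 genes, 26.9-fold between its highest and lowest group. MM134 parental wells held 36.0, 32.4 and 34.6 CPM. The LTED-D wells held 9.91, 10.2 and 10.4 CPM, the LTED-B wells 4.76, 4.77 and 4.28 CPM, the LTED-E wells 2.40, 2.31 and 2.16 CPM, and the LTED-A wells 1.99, 1.41 and 1.79 CPM. The 5 groups did not overlap. HEY2 changed on the log2 scale by -1.74 (LTED-D, SE 0.08, adjusted p = 5.77e-13), -2.89 (LTED-B, SE 0.08, adjusted p = 1.15e-15), -3.90 (LTED-E, SE 0.09, adjusted p = 3.02e-17) and -4.29 (LTED-A, SE 0.09, adjusted p = 6.30e-18). Every pair of MM134 variants was called except LTED-A against LTED-E (-0.39, SE 0.11, adjusted p = 0.00704).

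In SUM44, HEY2 was higher in the variants than in SUM44F. SUM44F wells held 1.48, 1.45 and 0.913 CPM, SUM44 LTED-A samples 13.0 and 15.2 CPM, and LTED-B wells 2.44, 2.20 and 2.93 CPM. All LTED samples were above all SUM44F wells. LTED-A was called, at 3.49 (SE 0.21, adjusted p = 6.11e-07). LTED-B, at 1.01 (SE 0.20, adjusted p = 0.00189), was not called by edgeR, but was by DESeq2 (1.06, adjusted p = 5.97e-06), and its 40 nearest genes had a median of 0.51. SUM44PE parental wells held 7.29, 7.68 and 6.96 CPM, a log2 fold change of 2.53 over SUM44F (SE 0.18, adjusted p = 5.78e-07), and so lay above LTED-B and below LTED-A.

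**Figure D3:**
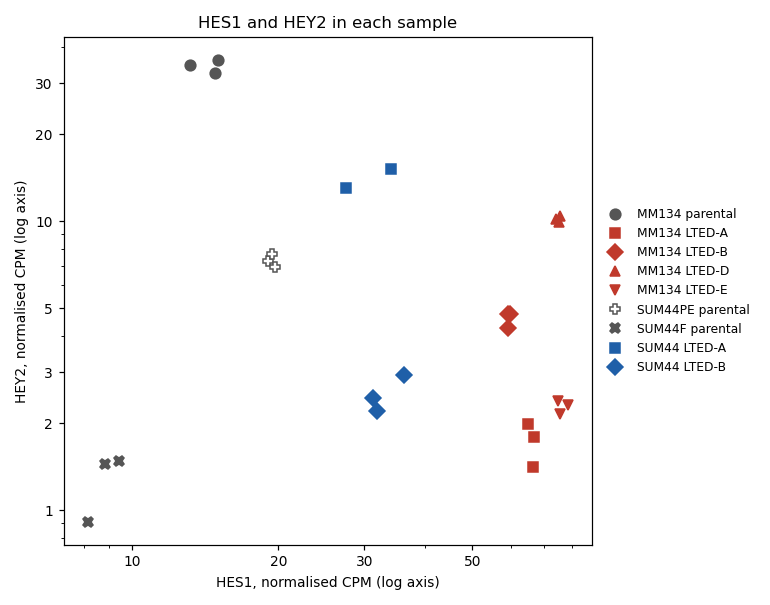
Each point is 1 sample, with the normalised CPM of HES1 on the horizontal and of HEY2 on the vertical axis, both on log axes (grey, parental; red, MM134 LTED; blue, SUM44 LTED). MM134 parental samples are at the top left, and their LTED samples are at the right, while SUM44F samples are at the bottom left and SUM44 LTED samples lie to the right of and above them.

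Per kilobase, HEY2 stood above HES1 in MM134 parental cells, at 12.8 against 6.96 CPM. In MM134 LTED-A the order was HES1 at 32.1 and HEY2 at 0.642 CPM. The log2 ratio of the HES1 to the HEY2 level in CPM was -1.26 ± 0.133 in MM134 parental cells and between 2.88 ± 0.0341 in LTED-D and 5.27 ± 0.264 in LTED-A. In SUM44F it was 2.81 ± 0.297, in SUM44PE 1.41 ± 0.0840, in SUM44 LTED-A 1.12 ± 0.0548 and in SUM44 LTED-B 3.72 ± 0.120. Of the 9 groups, only MM134 parental cells had more HEY2 than HES1 per kilobase.

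HES4 (ENSG00000188290, chr1:998962-1000172, minus strand), a further HES family repressor, had the smallest span of the 4 targets, 2.18-fold. MM134 parental wells held 20.1, 21.3 and 21.4 CPM and the 12 wells of the variants 11.96 to 15.3 CPM, with no overlap. LTED-D was lowest, with a log2 fold change of -0.73 (SE 0.06, adjusted p = 4.24e-09). LTED-B at -0.62 (SE 0.06, adjusted p = 3.41e-08) and LTED-A at -0.59 (SE 0.06, adjusted p = 3.04e-08) were called close to the fold minimum, and LTED-E at -0.49 (SE 0.06, adjusted p = 4.88e-07) was under it. The LTED-A value was -0.57 and not called without the libraries with fibroblast markers, and -0.58 to -0.56 and not called without MM134 parental replicate 2 or 3 or LTED-A replicate 1 or 2. Without LTED-B replicate 3, LTED-B was -0.57 and not called. In SUM44, LTED-A samples held 27.3 and 27.3 CPM against 15.3, 15.6 and 16.3 CPM in SUM44F, a rise of 0.80 (SE 0.11, adjusted p = 0.000283). Without SUM44F replicate 1, a library with fibroblast markers, the rise was 0.78 and its adjusted p 0.00113, which misses the threshold. It also missed it without SUM44F replicate 2 or either LTED-A sample (0.79 to 0.84, adjusted p up to 0.00359). LTED-B wells, at 16.7, 18.9 and 22.3 CPM, differed by 0.30 (SE 0.10, adjusted p = 0.0371).

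HEY1 (ENSG00000164683, chr8:79762371-79767857, minus strand), the paralog of HEY2, was the least abundant of the 10 genes, with group means from 0.348 to 1.33 CPM on 10 to 174 counts a sample. MM134 parental wells held 0.886, 0.809 and 1.00 CPM and LTED-E wells 0.346, 0.212 and 0.486 CPM, which did not overlap. LTED-E was called lower, at -1.34 (SE 0.30, adjusted p = 0.000912), just past the threshold, and without the 3 libraries with fibroblast markers it was -1.25 with an adjusted p of 0.00613. The call was also lost without any 1 of the parental wells, LTED-E replicate 1 or LTED-E replicate 2 (-1.41 to -1.07, adjusted p from 0.00211 to 0.00701). LTED-A, at -1.06 (SE 0.27, adjusted p = 0.00295), was not called. In SUM44 the differences were 0.44 (SE 0.25, adjusted p = 0.199) in LTED-A and -0.44 (SE 0.23, adjusted p = 0.156) in LTED-B.

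**Figure D4:**
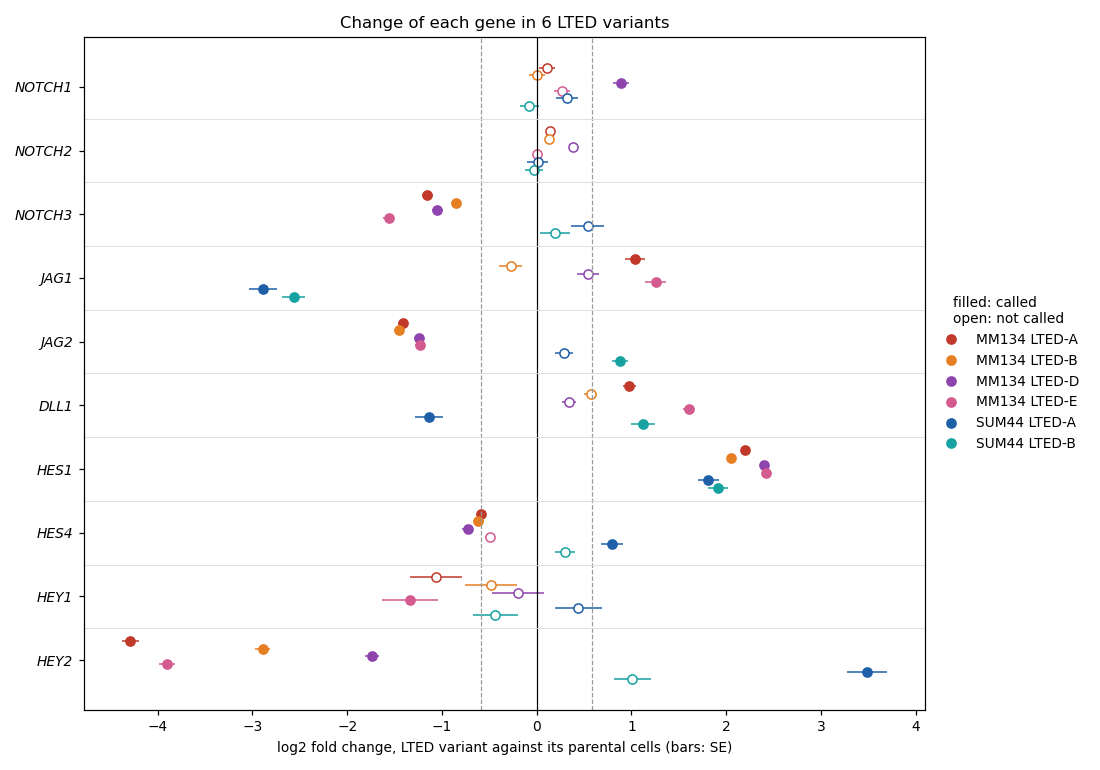
Points are log2 fold changes of the 10 genes in each LTED variant against its parental cells, with bars of 1 SE (1 colour per variant; filled, called; open, not called; dashed lines, 1.5-fold). HES1 lies between 1.81 and 2.42 in all 6 variants, while the points of HEY2, JAG1, JAG2 and NOTCH3 in MM134 and SUM44 fall on different sides or at different distances.

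The LTED change differed between the lines for 6 of the 10 genes, where 28.9% of all genes tested passed this interaction test at an adjusted p below 0.001 (13.6% with a positive difference, 15.3% with a negative one). The mean change in MM134 minus that in SUM44 was 3.35 for JAG1 (SE 0.14, adjusted p = 4.47e-15) and 0.86 for DLL1 (SE 0.11, adjusted p = 4.39e-07). It was -5.49 for HEY2 (SE 0.17, adjusted p = 2.57e-17), -1.93 for JAG2 (SE 0.07, adjusted p = 4.90e-16), -1.52 for NOTCH3 (SE 0.13, adjusted p = 2.57e-09) and -1.16 for HES4 (SE 0.09, adjusted p = 6.11e-10). For DLL1 the SUM44 mean is over 2 variants that moved in opposite directions. NOTCH1, NOTCH2, HEY1 and HES1 did not pass, although NOTCH2 did without SUM44F replicate 3 (0.26, adjusted p = 0.000706). This test reads the SUM44 variants against SUM44F alone. HES1, HEY2 and JAG2 were called higher in SUM44PE than in SUM44F, with HES1 at 19.4 and 8.78 CPM. The difference between the lines with SUM44PE as the reference was not tested, so the HES1 result does not show equal rises in the 2 lines.

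The variants of a line also differed from each other. Of the 10 genes, 2 were called between MM134 LTED-A and LTED-B (JAG1 and HEY2, beside 7.06% of all genes), 3 between LTED-A and LTED-D (NOTCH1, DLL1 and HEY2, beside 9.88%) and 1 between LTED-A and LTED-E (DLL1, beside 7.84%). Between LTED-B and LTED-D 3 were called (NOTCH1, JAG1 and HEY2, beside 7.4%). Between LTED-B and LTED-E there were 4 (NOTCH3, JAG1, DLL1 and HEY2, beside 9.78%), as between LTED-D and LTED-E (NOTCH1, JAG1, DLL1 and HEY2, beside 11.6%). SUM44 LTED-A and LTED-B differed in 2, DLL1 and HEY2, beside 7.42% of all genes. HES1, JAG2, HES4, NOTCH2 and HEY1 were called in none of the 7 pairs.

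The parental lines themselves differed in 7 of the 10 genes, 4 higher and 3 lower in MM134, beside 38.1% of all genes tested (18.9% higher, 19.2% lower). Relative to SUM44F, MM134 parental cells were higher in HEY2 by 4.77 (SE 0.15, adjusted p = 9.78e-18), JAG2 by 1.87 (SE 0.06, adjusted p = 1.55e-17), NOTCH3 by 1.35 (SE 0.11, adjusted p = 4.75e-10) and HES1 by 0.70 (SE 0.08, adjusted p = 4.61e-08). They were lower in JAG1, at -2.90 (SE 0.11, adjusted p = 8.79e-16), NOTCH1, at -1.58 (SE 0.09, adjusted p = 1.39e-12), and NOTCH2, at -0.85 (SE 0.06, adjusted p = 1.02e-11). SUM44PE and SUM44F, which are the same line in different media, differed in 3 of the 10, beside 5.57% of all genes (2.85% higher, 2.72% lower): HES1, HEY2 and JAG2 were higher in SUM44PE, as given above.

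Of 50 other genes of the pathway, 44 were tested in MM134 and 45 in SUM44. In MM134 LTED-A 5 rose and 11 fell, in LTED-B 5 rose and 11 fell, in LTED-D 6 rose and 9 fell, and in LTED-E 5 rose and 10 fell. In SUM44 LTED-A 6 rose and 4 fell, and in SUM44 LTED-B 5 rose and 4 fell. These are 34.1% to 36.4% of the genes tested in MM134 and 22.2% and 20% in SUM44, beside the shares of all genes given above.

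DLL4, a further Delta-like ligand known from endothelial cells, showed the largest rise among them in MM134. It went from 1.31 ± 0.149 CPM in the parental wells to 13.8 ± 0.523 CPM in LTED-A, 9.97 ± 0.134 CPM in LTED-B, 9.77 ± 0.512 CPM in LTED-D and 10.2 ± 0.344 CPM in LTED-E (n = 3 each), with log2 fold changes of 2.91 to 3.39. The summed endothelial markers were 1.57 to 3.01 CPM in the parental wells, higher in LTED-A (4.69 to 5.11 CPM) and LTED-D (4.49 to 4.88 CPM), and 1.64 to 2.16 CPM in LTED-B and 2.84 to 3.41 CPM in LTED-E. Of the 5 markers, 0 reached a group mean of 1 CPM in the parental wells, 1 in LTED-A, LTED-B and LTED-E, and 2 in LTED-D. KDR was at 0 in LTED-B and TEK at 0 in LTED-E. In SUM44, DLL4 fell by 1.35 on the log2 scale in LTED-B (SE 0.18), while LTED-A differed by -1.01 (SE 0.19, not called), and the endothelial markers were lower there too, as given above. Their part in the DLL4 differences was not tested. DLL3, a Delta-like protein that acts on Notch within the same cell, fell in the 4 MM134 variants by 1.32 to 1.69, and had at most 2 counts in any SUM44 library.

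NEURL1 and NEURL1B, which encode E3 ligases that act on Notch ligands, fell in all 4 MM134 variants. NEURL1 changed by -1.73 to -3.11, and NEURL1B, from 228 CPM in parental cells, by -1.22 to -1.63. In SUM44, NEURL1B rose in LTED-A by 0.90 (SE 0.08) and in LTED-B by 1.09 (SE 0.07), and NEURL1 rose in LTED-A by 1.17 (SE 0.11). LFNG, a Fringe glycosyltransferase that alters which ligands the receptors respond to, rose in the 4 MM134 variants by 1.19 to 1.73 and in SUM44 LTED-A by 1.13 (SE 0.10). A second Fringe, MFNG, fell in MM134 LTED-A, LTED-B and LTED-E by 1.87 to 2.46, from 1.66 CPM in parental cells.

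Among genes of receptor processing and turnover, APH1B, a gamma-secretase subunit, fell in MM134 LTED-A, LTED-B and LTED-E by 0.64 to 1.76 and rose in SUM44 LTED-B by 0.74 (SE 0.09). NUMB, an inhibitor of Notch signalling, rose in the 4 MM134 variants by 0.81 to 0.95, and the related NUMBL rose in SUM44 LTED-A by 1.62 (SE 0.17) and LTED-B by 1.16 (SE 0.16). FBXW7, part of the ligase that marks the intracellular domain for degradation, fell in MM134 LTED-A, LTED-B and LTED-D by 0.93 to 1.35 and in SUM44 LTED-B by 0.87 (SE 0.07). DTX4, a Deltex family ligase, rose in MM134 LTED-A, LTED-B and LTED-D by 0.73 to 1.58 and fell in SUM44 LTED-A by 1.48 (SE 0.23).

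In the nucleus, the corepressor gene TLE4 rose in the 4 MM134 variants by 1.42 to 2.88, and MAML3, a Mastermind-like coactivator gene, fell in LTED-A, LTED-B and LTED-E by 0.69 to 1.78. MAML2, a coactivator of the same family, was called lower in both SUM44 variants. It had 146 to 199 counts in the SUM44F libraries and 58 to 102 in SUM44PE, but 1 and 2 counts in the LTED-A samples and 0 to 1 in LTED-B, and 0 to 3 counts in all MM134 libraries. NRARP, a feedback inhibitor that is itself a Notch target, fell in the 4 MM134 variants by 0.64 to 1.34, from 8.30 CPM in parental cells, while HES1 rose there.

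**Figure D5:**
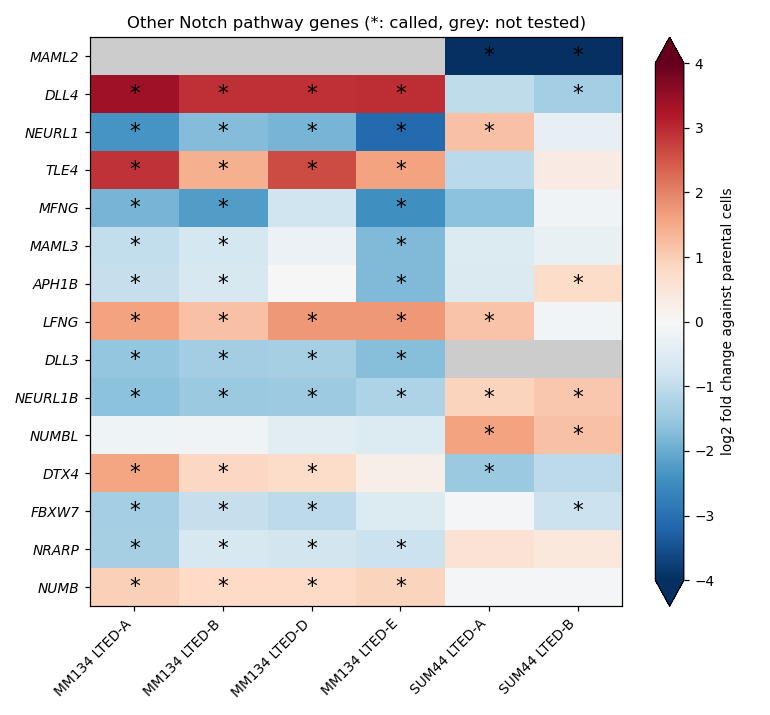
Colours give the log2 fold change of 15 further Notch pathway genes in the 6 LTED variants (blue, lower; red, higher; the scale ends at 4 on either side; asterisk, called; grey, not tested). The 4 MM134 columns have the same colour for DLL4, NEURL1, TLE4, LFNG, DLL3, NEURL1B, NRARP and NUMB, and the SUM44 columns differ from them for DLL4 and NEURL1B.

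Over the 9 group means of log2(CPM + 1), the genes most like HES1 among 12160 genes were TOX3, TUBA4A and ASL, with Pearson's r of 0.971, 0.970 and 0.967. Those most like HEY2 were DNAL4, PDLIM7 and CASP2 (0.977, 0.950 and 0.946), those most like JAG1 were FOXP1, PCNX1 and SLC4A11 (0.975, 0.959 and 0.948), and those most like DLL1 were MAP3K21, UGGT2 and TGDS (0.933, 0.931 and 0.923). These are descriptions of 9 points that share cell lines and a normalisation.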

How the data were processed

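Total RNA was isolated by the authors from 27 wells and sequenced from stranded total RNA libraries on an Illumina HiSeq. The authors' processing notes name Salmon 0.6.0 and hg38, and the study's methods Ensembl release 82. The deposited values are estimated counts per gene, of which 48.7% were not whole. Read trimming and the strand setting are not given in the sources used here. The values were rounded to whole counts, and GENCODE 44 gave symbols, positions and exon lengths. The members, gene lists and tests were chosen with earlier results of these data known.

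edgeR 4.0.16 (R 4.3.3) was used with filterByExpr, TMM normalisation and two-sided quasi-likelihood F tests, and p-values were adjusted by Benjamini-Hochberg over all genes tested. The MM134 groups were fitted together, as were SUM44F with its variants. SUM44PE was added for its comparison with SUM44F, and all groups but SUM44PE were fitted together for comparisons between lines. The interaction test had no fold minimum, and an SE is the log2 fold change divided by the square root of F. SUM44 LTED-A replicates 2 and 3, whose chi-square per degree of freedom was 0.312 beside 2.35 to 58.2 in the other 26 pairs of wells, were averaged. The highest values were those of SUM44 LTED-A replicate 1 against replicates 2 and 3 (58.15 and 56.6). Next came SUM44F replicate 3 against replicates 1 and 2 (42.8 and 39.2). Replicates are wells of one culture, so p-values measure the spread between wells. Levels are CPM on effective library sizes over all groups. Neighbours are up to 20 tested genes on each side of a member with a mean of at least 5 CPM over the groups of the fit used. All 10 members and the 15 pathway genes with the largest changes, among those called in at least 3 MM134 or both SUM44 variants with at least 1 CPM in a group, are named, as are the 3 most similar genes of the 4 members with the widest range. The script was tested on simulated data. DESeq2 1.42.0, other normalisation, filters, thresholds, thinning to 28582990 counts, fits of fewer or more groups, a replicate block and leaving out each replicate in turn were tried as alternatives, and leaving out the 3 libraries with fibroblast markers was added after the data were seen.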

Additional observations from a re-analysis of the deposited data

Results flagged for a closer look

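For 6 of the 10 genes, the LTED change differed between the 2 cell lines by a test of the difference itself (mean log2 change over 4 MM134 variants minus that over 2 SUM44 variants), beside 28.9% of all genes tested, with no fold minimum. The difference was -5.49 for HEY2, which fell in 4 of 4 MM134 variants and, against SUM44F, rose in SUM44 LTED-A and differed by 1.01 in LTED-B (adjusted p = 0.00189, not called). All LTED-B wells were below the SUM44PE parental wells. The difference between the lines was 3.35 for JAG1, -1.93 for JAG2, -1.52 for NOTCH3, -1.16 for HES4 and 0.86 for DLL1. The adjusted p-values stand with the results above.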

How the results depend on the processing

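Of 90 fold changes in 9 comparisons, 50 were called, and none of the 50 changed sign under any alternative run. Values that were not called changed sign 27 times, in 6 results. Called values moved by at most 0.34. RLE size factors changed no call. DESeq2 added 1, HEY2 in SUM44 LTED-B. The number of members called in MM134 LTED-B went from 5 to 3 with a fold minimum of 2, which is stricter by construction. Leaving out 1 replicate at a time gave 3 to 5 members called in SUM44 LTED-A, with 3 where replicate 1 was left out and only the averaged sample remained, which was then assumed to vary like the other groups. Deviations of same-numbered wells had correlations from -0.32 to 0.33, and none of 8 comparisons had every pair over 0.1. Differently numbered wells were not compared, so this check cannot exclude pairing. The samples were treated as unpaired in the main fits. With a replicate block, HEY1 in MM134 LTED-E was -1.36 (adjusted p = 0.00118) and lost its call, and the other 89 values kept theirs. HEY1 in LTED-E also lost it under thinning, in a fit of only the 2 groups and without 5 of the 6 wells in turn. HES4 in MM134 LTED-A lost it without a filter, in 1 fit of all 9 groups and in 4 of the leave-outs. HEY2 in SUM44 LTED-B and the difference of HES1 between lines were called without a filter and in 1 fit of all 9 groups, and DLL1 in SUM44 LTED-A lost its call in a fit of only the 2 groups (adjusted p = 0.0027). With normalisation by library totals, 38 of 90 group levels moved by more than 1 SD.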
